A study of Saccharomyces cerevisiae with 56 samples.

Results

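Yeast growth competitions measured 4023 distinct doubles of PDZ3, a domain of PSD-95, that carry at least 1 substitution to proline, of 50687 distinct measured doubles without a stop. A double is a variant with exactly 2 amino acid substitutions in a block of 66 residues, R312 to I377 in the numbering of full-length PSD-95. Doubles with a substitution at R312, G322, F337, F340, R368 or H372, with a stop or with a placeholder error were left out by the rule, which used no measured score. The library was built on a limited set of position pairs: the proline doubles fall on 112 pairs of 56 positions, with proline at 55 of them, and 107 carry proline at both positions. Members that share a position share a substitution and are not replicates of one another.

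All strains were BY4742 yeast carrying the domain in 1 of 4 constructs, which the labels name N (with an N extension), C (with a C extension), NC (with both) and PDZ3 (the domain alone). Each construct went through bindingPCA, in which growth in methotrexate reads binding of the domain to its ligand, and abundancePCA, in which growth reads the amount of the domain. Construct and assay make 8 sets, and the 56 libraries are 3 inputs, 3 outputs and 1 wild type for each set. Per the labels, cells were grown to an optical density of 1.6 at 30 °C, sampled as input, and moved at a density of 0.05 into 400 mL of competition medium for 5 generations. The labels do not say what the extensions hold or which ligand was used. The deposited table holds 1 merged score and 1 error for each variant, so values of single cultures cannot be shown, and since depth is unknown no counting intervals are printed.

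Scores are given below on a scaled axis, on which 0 is the wild type and -1 is the median of the single nonsense variants in that set. A nonsense variant ends the protein early, so -1 marks the score of a domain cut short, not the lowest score measured. Doubles that hold a stop from G345 on had medians from -1.14 in PDZ3 abundance to -0.997 in C binding. Errors after ± are standard errors, the authors' own or computed from theirs. A test is a two-sided normal test of a difference over that error with Benjamini-Hochberg adjustment over all doubles compared in the set, at a threshold of 0.05. It takes the authors' error as known, although 3 cultures stand behind each value, so only differences and calls are given and no single p-value. The percentage in brackets after a count of called members is the share called among all doubles of the same comparison, members included. All doubles here hold no stop, and they include those with a substitution at the residues left out of the members.

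Proline differs from the other residues in that its side chain closes onto the backbone nitrogen. It has no amide hydrogen to give to a backbone hydrogen bond and its backbone is held in a narrow range of angles, so it often interrupts strands and the inside of helices and is met more often in loops and at the first turn of a helix. A PDZ domain is a small fold of strands and helices. It holds the last residues of a partner protein in a groove between the second strand and the second helix, next to a loop that receives the partner's carboxylate. A double to proline therefore asks how the fold and its ligand site bear a second change beside one that restricts the backbone. The structural regions named here were assigned by residue number for this work.

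Most proline doubles scored near the nonsense end in PDZ3 and fewer did in NC. In abundance their median was -0.875 in N, -0.871 in C, -0.336 in NC and -1.07 in PDZ3, beside -0.691 in N, -0.574 in C, -0.174 in NC and -0.989 in PDZ3 for the other doubles outside the same residues. In binding it was -1 in N, -0.851 in C, -0.645 in NC and -0.994 in PDZ3, beside -0.915 in N, -0.619 in C, -0.332 in NC and -0.972 in PDZ3 for the other doubles. The proline doubles had the lower median in all 8 sets. The share of proline doubles above -0.25, close to the wild type, was 19.9% in N, 24.3% in C, 45.7% in NC and 9.29% in PDZ3 in abundance. For the other doubles it was 27.8% in N, 31.4% in C, 58.4% in NC and 14.7% in PDZ3. In binding the share of proline doubles was 7.39% in N, 18.3% in C, 26.3% in NC and 2.99% in PDZ3. Among the other doubles it was 14.7% in N, 31.4% in C, 43.9% in NC and 7.28% in PDZ3. The number of proline doubles measured was 3401 in N, 3791 in C, 3622 in NC and 2552 in PDZ3 in abundance, and 3559 in N, 3723 in C, 3772 in NC and 3212 in PDZ3 in binding. Of these, 1919 were measured in all 8 sets, so the sets do not hold the same doubles.

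Set against other substitutions at the same 2 residues, the proline doubles had the lower median at most position pairs. In abundance this held at 69 of 107 pairs in N, 74 of 109 pairs in C, 74 of 111 pairs in NC and 71 of 108 pairs in PDZ3. In binding it held at 83 of 111 pairs in N, 88 of 108 pairs in C, 89 of 111 pairs in NC and 73 of 108 pairs in PDZ3. The median gap over pairs, proline doubles minus others, was -0.0559 in N, -0.0555 in C, -0.0743 in NC and -0.0438 in PDZ3 in abundance. For binding it was -0.0557 in N, -0.0621 in C, -0.142 in NC and -0.0189 in PDZ3. Single pairs ran from -1.11 to 0.297 in NC abundance and from -1.06 to 0.577 in PDZ3 abundance. The widest gap in NC abundance lay at V365 and L367, just before the second helix, where 36 proline doubles had a median of -1.09 and 314 other doubles one of 0.0208. Q358 and L360 were alike, with -1.01 for proline doubles and -0.116 for the others. At G335 and I336 the order was the opposite in NC binding: proline doubles had a median of -0.192 and the others one of -0.611. These 3 pairs were picked after their values were seen, among pairs with at least 10 proline doubles.

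The level varied with where the proline sat. Doubles with proline in the strand 4 region (L353 to N363) had a low median abundance, with -1.05 in N, -1.03 in C, -0.947 in NC and -1.15 in PDZ3. Doubles with proline in the loop between strands 2 and 3 (D332 to G335) were high, with -0.0766 in N, -0.149 in C, -0.0812 in NC and -0.29 in PDZ3 in abundance. Their binding was -0.431 in N, -0.172 in C, -0.17 in NC and -0.705 in PDZ3, the highest of the 9 regions in every construct. Strand 1 and the stretch before helix 2 lay low in abundance too. Strand 1 had -1.03 in N, -1.02 in C, -0.825 in NC and -1.15 in PDZ3, and the stretch before helix 2 -1 in N, -1.02 in C, -0.802 in NC and -1.14 in PDZ3. The order of these 3 regions turned with the measure. Over mild partners alone, those whose own single scored above -0.25, the strand 4 region had -1.08 and strand 1 -1.14 in PDZ3. By means weighted with the errors, the strand 4 region had -0.834 and the stretch before helix 2 -1.06 in PDZ3. The helix 1 region (A343 to E352) stood at -0.387 in N, -0.247 in C, -0.0781 in NC and -0.858 in PDZ3 in abundance. For binding the same region stood at -0.946 in N, -0.565 in C, -0.407 in NC and -0.983 in PDZ3. Strand 3 gave -0.759 in N, -0.765 in C, -0.234 in NC and -1.05 in PDZ3 in abundance. Helix 2 gave -0.825 in N, -0.853 in C, -0.265 in NC and -1.06 in PDZ3. Strand 2 gave -0.745 in N, -0.834 in C, -0.206 in NC and -0.95 in PDZ3, and the carboxylate loop gave -0.908 in N, -0.846 in C, -0.348 in NC and -1.06 in PDZ3. Regions were not uniform. In strand 1, NC abundance was -0.0262 for R313P doubles and -0.0367 for H317P doubles, beside -1.02 for I316P doubles. With V315 changed, R313P and H317P doubles were lower in PDZ3 abundance, at -1.01 and -0.512. In strand 2 the quartiles in N abundance were -1.09 and -0.0569. The N326P, I327P and V328P singles scored -0.938, -1 and -1.06 there, and the G329P, G330P and E331P singles 0.0469, -0.0843 and -0.00829.

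The doubles of a few prolines had medians near the wild type. Doubles with A343P, at the start of the helix 1 region, had a median of -0.00165 in N, -0.062 in C, -0.0575 in NC and -0.0528 in PDZ3 in abundance. All of them join A343P to a change of L342 or of D348, so other partners were not seen. In binding these doubles had -0.0888 in N, -0.045 in C, -0.0359 in NC and -0.0835 in PDZ3. Doubles with K355P gave -0.0358 in N, -0.0857 in C, -0.0422 in NC and -0.123 in PDZ3 in abundance. They gave -0.187 in N, -0.07 in C, -0.0987 in NC and -0.078 in PDZ3 in binding, although K355 lies within the strand 4 region. K355P was joined to changes of only 2 positions, and its doubles with the neighbour R354 were nearer the wild type, at -0.0386 in N, -0.0404 in C, -0.047 in NC and 0.000932 in PDZ3 in binding. With S339 changed, in strand 3, binding was -0.536 in N, -0.237 in C, -0.172 in NC and -0.673 in PDZ3. Abundance of the doubles with S339 was -0.197 in N, -0.394 in C, -0.174 in NC and -0.506 in PDZ3. E334P, in the loop between strands 2 and 3, gave -0.0279 in N, -0.112 in C, -0.0647 in NC and -0.139 in PDZ3 in abundance. Its binding lay lower, at -0.445 in N, -0.182 in C, -0.144 in NC and -0.671 in PDZ3, and varied with the partner. With G330 changed binding was -0.787 in N, -0.447 in C, -0.364 in NC and -0.97 in PDZ3. With its neighbour G333 changed it was 0.0646 in N, 0.0775 in C, 0.0577 in NC and 0.126 in PDZ3. Of the positions with at least 10 proline doubles, the number with a median above -0.25 was 14 of 54 in N, 18 of 53 in C, 30 of 54 in NC and 5 of 52 in PDZ3 in abundance, and 5 of 54 in N, 15 of 53 in C, 19 of 55 in NC and 2 of 53 in PDZ3 in binding.

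Other prolines had medians near the nonsense end in every construct. Doubles with D357P had a median of -1.18 in N, -1.09 in C, -1.05 in NC and -1.19 in PDZ3 in abundance. Binding stood at -1.1 in N, -1.02 in C, -1.02 in NC and -1.03 in PDZ3. The single D357P itself scored -1.08 in N, -1.06 in C, -1.08 in NC and -1.04 in PDZ3 in abundance. Q358P doubles gave -1.05 in N, -1.08 in C, -1.01 in NC and -1.22 in PDZ3 in abundance. I316P, in strand 1, gave -1.11 in N, -1.11 in C, -1.02 in NC and -1.2 in PDZ3. V362P, at the end of the strand 4 region, gave -1.07 in N, -1.06 in C, -1.02 in NC and -1.17 in PDZ3. F325P, in the carboxylate loop, gave -1.14 in N, -1.11 in C, -0.877 in NC and -1.2 in PDZ3 in abundance. Its binding was -1.09 in N, -0.99 in C, -1.01 in NC and -1.01 in PDZ3.

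In a further group of prolines binding was low and abundance was closer to the wild type. Doubles with G329P, in strand 2 along the ligand groove, had a median of -0.963 in N, -0.979 in C, -0.927 in NC and -0.976 in PDZ3 in binding. Their abundance was -0.0312 in N, -0.122 in C, -0.0668 in NC and -0.19 in PDZ3, and it varied with the partner. With its neighbour V328 changed abundance was 0.027 in N, -0.0588 in C, -0.0249 in NC and -0.0185 in PDZ3. With I336 changed it was -0.0861 in N, -0.264 in C, -0.138 in NC and -0.659 in PDZ3. E331P, in the same strand, gave -0.849 in N, -0.862 in C, -0.728 in NC and -0.938 in PDZ3 in binding. The abundance of E331P doubles was -0.0285 in N, -0.11 in C, -0.0729 in NC and -0.138 in PDZ3. G324P, in the carboxylate loop, gave -1.07 in N, -0.967 in C, -1.01 in NC and -1.02 in PDZ3 in binding. In abundance it gave -0.397 in N, -0.276 in C, -0.168 in NC and -0.872 in PDZ3, so PDZ3 was low in both readouts. Doubles of L323P with a change of R318, the arginine at the start of that loop, gave -1 in N, -0.967 in C, -0.908 in NC and -1 in PDZ3 in binding. Abundance of these doubles was -0.129 in N, -0.0561 in C, -0.0687 in NC and -0.307 in PDZ3. With its other 3 partner positions L323P was lower in abundance too. With F325 changed its abundance was -1.04 in N, -1.07 in C, -0.819 in NC and -1.07 in PDZ3. With I316 changed abundance was -1.07 in N, -0.94 in C, -0.406 in NC and -1.08 in PDZ3, and with D357 changed -0.962 in N, -0.915 in C, -0.75 in NC and -1.08 in PDZ3.

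Binding was tested against abundance on the scaled axis for each double measured in both. Binding was lower for 624 of 3170 (19.7%) in N, 558 of 3626 (14.1%) in C, 834 of 3476 (22.4%) in NC and 277 of 2271 (13%) in PDZ3. It was higher for 75 (2.33%) in N, 271 (8.49%) in C, 176 (4.93%) in NC and 52 (2.58%) in PDZ3. These shares are near those of all doubles. V328Q/G329P was among the 5 lowest differences in PDZ3 and the lowest in NC. It scored -0.976 ± 0.122 in N, -1.01 ± 0.0644 in C, -1.24 ± 0.166 in NC and -1.03 ± 0.0763 in PDZ3 in binding. In abundance it scored 0.0375 ± 0.0466 in N, -0.0412 ± 0.0778 in C, 0.0205 ± 0.0634 in NC and 0.0681 ± 0.0491 in PDZ3. The 4 binding scores lay near the nonsense median or below it and the 4 abundance scores near the wild type. The difference was -1.27 ± 0.178 in NC and -1.1 ± 0.0946 in PDZ3. Neither call held with errors widened to the spread of the single nonsense variants. R318V/L323P in N had -1.12 in binding and 0.00166 in abundance. In the other direction, S371V/Q374P in C scored -0.165 in binding and -1.08 in abundance, a difference of 0.92 ± 0.105, which did not hold with the widened errors either. S371 and Q374 lie in helix 2. Q374P doubles as a whole gave -0.585 in N, -0.0729 in C, -0.00568 in NC and -0.963 in PDZ3 in binding. Their abundance stood at -0.829 in N, -0.547 in C, -0.207 in NC and -1.07 in PDZ3.

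Against the wild type, most proline doubles were lower. In abundance the counts called lower were 2888 of 3401 (73.7%) in N, 2874 of 3791 (63.7%) in C, 1862 of 3622 (39%) in NC and 2216 of 2552 (79.4%) in PDZ3. In binding they were 3210 of 3559 (81.4%) in N, 3340 of 3723 (82.1%) in C, 3066 of 3772 (70.1%) in NC and 3035 of 3212 (89.5%) in PDZ3. The members' shares exceed those of all doubles in each set. Few were called higher than the wild type. In abundance these were 11 of 3401 (0.744%) in N, 1 of 3791 (0.289%) in C, 0 of 3622 (0.751%) in NC and 1 of 2552 (0.323%) in PDZ3. In NC abundance 3 had an unadjusted p under 0.05 in the normal test. In binding 14 of 3559 (0.327%) in N, 30 of 3723 (0.999%) in C, 33 of 3772 (0.789%) in NC and 8 of 3212 (0.22%) in PDZ3 were called higher. With errors widened to the spread of the single nonsense variants, the share called in either direction over the 4 constructs was 48.9% in binding and 9.16% in abundance. With the authors' errors it was 89.3% in binding and 73.7% in abundance.

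Most doubles could not be told from their more harmful single. In abundance the double was lower than that single for 351 of 3398 (12.4%) in N, 501 of 3790 (18%) in C, 435 of 3603 (13.7%) in NC and 303 of 2535 (17.7%) in PDZ3. It was higher for 257 of 3398 (5.56%) in N, 57 of 3790 (1.67%) in C, 130 of 3603 (1.84%) in NC and 216 of 2535 (6.56%) in PDZ3. In binding it was lower for 305 of 3557 (11.3%) in N, 683 of 3720 (24.4%) in C, 699 of 3770 (19.2%) in NC and 175 of 3166 (10%) in PDZ3. It was higher in binding for 105 of 3557 (2.65%) in N, 428 of 3720 (7.49%) in C, 285 of 3770 (5.11%) in NC and 66 of 3166 (2.7%) in PDZ3. The members' share called lower was below that of all doubles in all 8 sets. Their share called higher was above it in 6 of 8 sets, all but C abundance and PDZ3 binding. The median difference ran from -0.11 in N binding to -0.0337 in C binding. Over all doubles it was -0.126 in N binding and -0.0575 in C binding. Against the proline single alone, the double was lower for 808 of 3398 (36.2%) in N, 947 of 3790 (37.2%) in C, 695 of 3603 (24.6%) in NC and 630 of 2535 (40.7%) in PDZ3 in abundance. In binding the counts were 724 of 3557 (34.7%) in N, 1172 of 3720 (49.8%) in C, 1219 of 3770 (41.3%) in NC and 464 of 3166 (34.3%) in PDZ3. The background here counts every double against each of its singles. It was higher than its proline single for 194 of 3398 (3.48%) in N, 64 of 3790 (1.08%) in C, 129 of 3603 (1.09%) in NC and 179 of 2535 (3.97%) in PDZ3 in abundance. In binding the members' share that was higher was 2.81% (1.84%) in N, 9.27% (4.49%) in C, 6.1% (3.08%) in NC and 1.77% (1.93%) in PDZ3. With errors multiplied by 2, the share called against the more harmful single over the 4 constructs was 3.9% in binding and 2.72% in abundance. With the authors' errors it was 19.3% in binding and 16.9% in abundance. With errors widened to the spread of the single nonsense variants it was 1.01% in binding and 0.18% in abundance.

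The doubles differed in level with their proline single. Where that single was mild, above -0.25, the doubles had a median of -0.222 in N, -0.296 in C, -0.131 in NC and -0.414 in PDZ3 in abundance. In binding these doubles stood at -0.398 in N, -0.266 in C, -0.192 in NC and -0.655 in PDZ3. Where it was severe, below -0.75, they had -1.08 in N, -1.08 in C, -0.98 in NC and -1.14 in PDZ3 in abundance. The same class had -1.06 in N, -0.986 in C, -0.993 in NC and -1.01 in PDZ3 in binding. Few doubles with a severe proline single lay above -0.25. They numbered 1 of 1417 in N, 2 of 1619 in C, 8 of 904 in NC and 12 of 1577 in PDZ3 in abundance. In binding they numbered 3 of 2074 in N, 4 of 1850 in C, 1 of 1005 in NC and 3 of 2374 in PDZ3. Where both singles were mild, the double was still severe for 22 of 727 in N, 179 of 1500 in C, 179 of 2199 in NC and 26 of 302 in PDZ3 in abundance. As a share this was 3.03% in N, 11.9% in C, 8.14% in NC and 8.61% in PDZ3 in abundance, beside 3.12% in N, 10.1% in C, 7.11% in NC and 10.5% in PDZ3 for the other doubles with mild singles. In binding the share was 9.04% in N, 7.39% in C, 6.98% in NC and 6.45% in PDZ3, beside 6.16% in N, 3.51% in C, 4.35% in NC and 10.1% in PDZ3 for the other doubles.

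Some doubles scored far below 2 mild singles in at least 1 construct. I338S/S339P, at neighbouring residues of strand 3, scored -0.734 ± 0.0472 in N, -0.981 ± 0.0623 in C, -0.768 ± 0.0357 in NC and -1.1 ± 0.126 in PDZ3 in binding. I338S alone scored -0.335 in N, -0.0189 in C, 0.005 in NC and -0.931 in PDZ3. S339P alone scored -0.388 in N, -0.0413 in C, 0.0384 in NC and -0.955 in PDZ3. In C and NC both singles lay near the wild type and the double toward the nonsense end. The difference from the lower single was -0.94 ± 0.063 in C and -0.773 ± 0.0362 in NC. F325A/L353P joins the carboxylate loop to the strand 4 region. In binding it scored -1.13 ± 0.099 in N, -0.876 ± 0.0606 in C, -0.307 ± 0.0872 in NC and -1.06 ± 0.148 in PDZ3. F325A alone scored -0.323 in N, -0.0542 in C, -0.0497 in NC and -0.813 in PDZ3. L353P alone scored -0.27 in N, -0.0115 in C, 0.00438 in NC and -1.02 in PDZ3. In C the double lay -0.822 ± 0.0608 from the lower single. The abundance of the double was -0.916 ± 0.133 in N, -0.835 ± 0.125 in C, -1.05 ± 0.165 in NC and -1.2 ± 0.378 in PDZ3, low in every construct. L353P/R354E scored -0.972 ± 0.0973 in N, -1.2 ± 0.21 in C, -0.442 ± 0.061 in NC and -1.22 ± 0.116 in PDZ3 in abundance. L353P alone scored -0.539 in N, -0.101 in C, 0.0393 in NC and -1.1 in PDZ3. R354E alone scored -0.0852 in N, 0.0404 in C, 0.0433 in NC and -0.0866 in PDZ3. Both singles were mild in C and NC, but L353P was not mild in N or PDZ3. With errors widened to the spread of the single nonsense variants, the calls of I338S/S339P in C and NC binding and of F325A/L353P in C binding held, and those of both in N binding did not. That of L353P/R354E in C abundance, where errors were multiplied by 3.18, did not hold either.

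The largest falls below the proline single lay where a mild proline met a harmful partner. Low scores gather near -1, so a large fall needs a proline single well above it, and the ranking favours this pattern. T321P/L353R, which joins the carboxylate loop to the strand 4 region, scored -1.12 ± 0.156 in N, -1.09 ± 0.089 in C, -1.18 ± 0.132 in NC and -1.26 ± 0.113 in PDZ3 in abundance. T321P alone scored -0.129 in N, -0.0174 in C, -0.0058 in NC and -0.0773 in PDZ3, near the wild type. L353R alone scored -1.13 in N, -1.07 in C, -1.1 in NC and -1.18 in PDZ3. G335P/I336R, at neighbouring residues, scored -1.18 ± 0.095 in N, -1.01 ± 0.0821 in C, -0.91 ± 0.0698 in NC and -1 ± 0.14 in PDZ3 in binding. G335P alone scored 0.196 in N, 0.0633 in C, 0.0268 in NC and 0.0822 in PDZ3. I336R alone scored -1.05 in N, -0.972 in C, -0.801 in NC and -1 in PDZ3. In both doubles the score lay nearer to that of the partner's single than to that of the proline single.

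A smaller number of doubles scored above their more harmful single. G335Y/I336P, where the loop meets strand 3, had the largest mean rise in abundance among the 13 that passed in at least 3 constructs. It scored -0.132 ± 0.0873 in N, 0.0542 ± 0.109 in C, 0.142 ± 0.151 in NC and -0.11 ± 0.092 in PDZ3 in abundance. G335Y alone scored -0.986 in N, -0.794 in C, -0.111 in NC and -1.09 in PDZ3. I336P alone scored -0.223 in N, -0.108 in C, -0.0373 in NC and -0.472 in PDZ3. Except in NC, G335Y alone was severe and the double lay near the wild type. The difference was 0.854 ± 0.093 in N and 0.981 ± 0.0982 in PDZ3. In binding the double scored -0.418 ± 0.0892 in N, -0.0669 ± 0.0551 in C, 0.0739 ± 0.139 in NC and -0.574 ± 0.0705 in PDZ3. The calls of this double did not hold with errors widened to the spread of the single nonsense variants. G324L/L342P came next in abundance, at -0.185 ± 0.0877 in N, -0.0765 ± 0.0633 in C, -0.0694 ± 0.0553 in NC and -0.465 ± 0.0514 in PDZ3. G324L alone scored -1.04 in N, -0.531 in C, -0.189 in NC and -0.997 in PDZ3. In binding that double scored -1.07 ± 0.137 in N, -0.937 ± 0.0605 in C, -1.01 ± 0.0942 in NC and -1.07 ± 0.0753 in PDZ3.

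In 2 further doubles the proline single was the more harmful one in PDZ3. G344P/D348T, in the helix 1 region, scored 0.0223 ± 0.034 in N, 0.0543 ± 0.0947 in C, -0.003 ± 0.0542 in NC and -0.25 ± 0.0856 in PDZ3 in abundance. G344P alone scored -0.521 in N, -0.288 in C, -0.0473 in NC and -1.06 in PDZ3. The difference was 0.544 ± 0.0537 in N and 0.813 ± 0.115 in PDZ3. S339P/K355V scored 0.0517 ± 0.127 in N, 0.117 ± 0.0285 in C, 0.087 ± 0.0427 in NC and -0.132 ± 0.0797 in PDZ3 in binding. S339P alone scored -0.388 in N, -0.0413 in C, 0.0384 in NC and -0.955 in PDZ3. In PDZ3 this was a difference of 0.823 ± 0.0881 from S339P. Among the 10 that passed in at least 3 constructs, this double had the highest mean difference from a proline single in binding over the 4 constructs. The PDZ3 call held with errors widened to the spread of the single nonsense variants, and those of G344P/D348T did not. In abundance in PDZ3 the same double scored -0.75 ± 0.158, next to -0.783 for S339P. L323P/F325V was also called higher than L323P in binding, but L323P lay below the nonsense median there, at -1.17 in N, -1.17 in C, -1.21 in NC and -1.13 in PDZ3. Part of that difference is therefore beyond the nonsense end of the axis. The double itself scored -0.908 ± 0.0852 in N, -1.01 ± 0.0584 in C, -0.601 ± 0.0434 in NC and -0.813 ± 0.0694 in PDZ3.

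The double was then set against the sum of its singles, with the sum not allowed below -1. The share of doubles whose plain sum lay below -1 was 48.4% in N, 39.4% in C, 20% in NC and 69.7% in PDZ3 in abundance. In binding that share was 59.2% in N, 44.1% in C, 29.7% in NC and 76.8% in PDZ3. Most doubles in PDZ3 were therefore compared with the limit itself. In abundance the double was lower than the limited sum for 184 of 3398 (7.61%) in N, 406 of 3790 (14.5%) in C, 399 of 3603 (12.9%) in NC and 303 of 2535 (14.9%) in PDZ3. It was higher in abundance for 285 of 3398 (4.93%) in N, 60 of 3790 (1.27%) in C, 92 of 3603 (1.13%) in NC and 194 of 2535 (5.73%) in PDZ3. In binding the double was lower than the limited sum for 181 of 3557 (5.97%) in N, 530 of 3720 (17.9%) in C, 525 of 3770 (13.5%) in NC and 66 of 3166 (3.97%) in PDZ3. It was higher than the sum for 108 of 3557 (2.81%) in N, 380 of 3720 (7.71%) in C, 293 of 3770 (6.15%) in NC and 47 of 3166 (2.08%) in PDZ3. The lower calls in PDZ3 abundance rest in part on where the limit is set. Of these calls on doubles with 1 proline, 140 had a severe proline single, 65 one between -0.75 and -0.25, and 88 a mild one. With the limit at the median of the doubles that hold a stop, chosen after seeing the data, 159 were lower and 256 higher in PDZ3 abundance. Against the running median of other doubles with a like plain sum, 64 were lower and 365 higher there. Over the 4 constructs that running median gave 502 lower and 1358 higher in abundance, where the limited sum gave 1292 and 631. In binding it gave 749 lower and 1355 higher, where the limited sum gave 1302 and 828. The counts with the moved limit and with the running median cover members alone. No share of all doubles was computed for them, so they cannot be read as particular to proline doubles. Against the limited sum, the members' share called lower was below that of all doubles in 7 of 8 sets, all but NC binding. Their share called higher was above it in 7 of 8 sets, all but PDZ3 binding. Here too members and all doubles were not matched for the level of their singles. The members' median difference ran from -0.131 in PDZ3 abundance to -0.022 in PDZ3 binding, next to -0.142 in PDZ3 abundance and -0.0332 in PDZ3 binding for all doubles. With errors multiplied by 2, the share called over the 4 constructs was 3.26% in binding and 1.97% in abundance, where the authors' errors gave 15% in binding and 14.4% in abundance. With no lower limit to the sum, it was 42.6% in binding and 28.3% in abundance.

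Of the 5 doubles furthest above their limited sum in binding by the naming rule, 4 join G330P to a change of its neighbour E331 in strand 2. G330P/E331K scored -0.46 ± 0.0622 in N, -0.381 ± 0.0295 in C, -0.263 ± 0.0325 in NC and -0.577 ± 0.0747 in PDZ3 in binding. G330P alone scored -0.294 in N, -0.0664 in C, -0.0536 in NC and -0.455 in PDZ3. E331K alone scored -0.679 in N, -0.588 in C, -0.311 in NC and -0.847 in PDZ3. It exceeded the sum by 0.513 ± 0.0926 in N and by 0.274 ± 0.0427 in C and scored below G330P alone in all 4 constructs. These calls did not hold with errors widened to the spread of the single nonsense variants. Its abundance was near the wild type, at -0.212 ± 0.0484 in N, -0.0775 ± 0.061 in C, -0.033 ± 0.0559 in NC and -0.179 ± 0.0655 in PDZ3.

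The extensions were compared with PDZ3 over the doubles measured in all 4 constructs of an assay, 2221 in abundance and 2759 in binding. The 3 contrasts share the PDZ3 values. In abundance 424 were called higher (19.4%) and 27 lower (0.765%) in N, 518 were called higher (25%) and 33 lower (0.959%) in C, 997 were called higher (46.5%) and 14 lower (0.392%) in NC. The mean score of these doubles was -0.718 in N, -0.668 in C, -0.47 in NC and -0.91 in PDZ3, and the mean difference from PDZ3 was 0.192 ± 0.0444 in N, 0.242 ± 0.0363 in C, 0.44 ± 0.0363 in NC. In binding 163 were called higher (7.56%) and 6 lower (0.215%) in N, 819 were called higher (36.1%) and 19 lower (1.28%) in C, 1195 were called higher (49.7%) and 13 lower (0.5%) in NC. The mean score was -0.883 in N, -0.703 in C, -0.597 in NC and -0.929 in PDZ3, and the mean difference 0.0457 ± 0.0307 in N, 0.226 ± 0.0273 in C, 0.332 ± 0.0272 in NC. In abundance the shares called are near those of all doubles, and in binding the shares called higher are below them. With errors widened to the spread of the single nonsense variants, 0 doubles were called in N and C abundance and in N binding, 4.42% in NC binding and 1.94% in NC abundance.

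The largest differences of NC from PDZ3 lay in doubles near the wild type in NC. Ranking by the difference favours such doubles, since low scores gather near -1. I316A/R318P, the furthest in abundance, at the join of strand 1 and the carboxylate loop, scored -0.883 ± 0.0658 in N, -0.301 ± 0.0492 in C, 0.0715 ± 0.0558 in NC and -1.24 ± 0.052 in PDZ3. NC lay at the wild type and PDZ3 below the nonsense median, a difference of 1.31 ± 0.0895. R318P alone scored -0.022 in N, -0.00637 in C, 0.0236 in NC and -0.035 in PDZ3. I316A alone scored -0.283 in N, -0.0648 in C, -0.0133 in NC and -0.694 in PDZ3. L353P/R354H scored -0.887 ± 0.125 in N, -0.511 ± 0.114 in C, 0.0411 ± 0.0494 in NC and -1.24 ± 0.0655 in PDZ3 in abundance. NC differed from PDZ3 by 1.28 ± 0.0944. S371V/Q374P scored -1.06 ± 0.0769 in N, -0.165 ± 0.0225 in C, 0.0517 ± 0.0194 in NC and -1.15 ± 0.128 in PDZ3 in binding. C and NC lay near the wild type and N and PDZ3 near the nonsense median. Its difference of NC from PDZ3 was 1.2 ± 0.132. All 3 calls held with errors widened to the spread of the single nonsense variants. L353P doubles as a whole had a median of -0.934 in N, -0.867 in C, -0.278 in NC and -1.11 in PDZ3 in abundance, and this varied with the partner. In NC it was -0.00108 with T321 changed, -0.0661 with R354 changed, -0.958 with F325 changed and -0.995 with I359 changed.

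Few doubles were lower in NC than in PDZ3. S361P/G364P led them in abundance, at -1.18 ± 0.139 in N, -0.925 ± 0.0806 in C, -1.16 ± 0.174 in NC and -0.0993 ± 0.17 in PDZ3. Both of its singles were severe in PDZ3 abundance, at -1.17 for S361P and -0.999 for G364P, so its PDZ3 abundance stood apart from its own singles, from its other abundance scores and from its binding score of -1.03 in PDZ3. The next in abundance, R354E/D357P, differed by -0.741 ± 0.249. The call of S361P/G364P did not hold with the widened errors.

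Doubles with proline at both positions numbered 90 in N, 103 in C, 96 in NC and 71 in PDZ3 in abundance, and their median there was -0.895 in N, -0.977 in C, -0.727 in NC and -1.07 in PDZ3. In binding they numbered 100 in N, 105 in C, 99 in NC and 90 in PDZ3, with a median of -1.03 in N, -0.923 in C, -0.785 in NC and -1.02 in PDZ3. L342P/A343P had the highest mean over the 8 sets among the 54 measured in all of them. It scored 0.011 ± 0.048 in N, 0.0748 ± 0.115 in C, 0.0124 ± 0.0534 in NC and -0.117 ± 0.105 in PDZ3 in abundance. In binding it had -0.133 ± 0.0494 in N, -0.0463 ± 0.0381 in C, -0.0421 ± 0.0309 in NC and -0.32 ± 0.0986 in PDZ3. This pair of neighbouring prolines, between strand 3 and the helix 1 region, thus lay above -0.25 in every set but PDZ3 binding. G333P/E334P, in the loop between strands 2 and 3, scored -0.0161 ± 0.0518 in N, 0.0727 ± 0.07 in C, -0.0941 ± 0.0527 in NC and -0.242 ± 0.261 in PDZ3 in abundance. Its binding score was -0.133 ± 0.0618 in N, -0.21 ± 0.0295 in C, -0.24 ± 0.0254 in NC and -0.594 ± 0.0578 in PDZ3. L353P/I359P, within the strand 4 region, had the lowest mean. It scored -1.16 ± 0.156 in N, -1.12 ± 0.137 in C, -1.39 ± 0.359 in NC and -1.27 ± 0.116 in PDZ3 in abundance. Its binding was -1.08 ± 0.191 in N, -0.825 ± 0.0443 in C, -1.1 ± 0.0945 in NC and -1.05 ± 0.164 in PDZ3.

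In NC and PDZ3 abundance the median varied less with the kind of partner than with the region of the proline. In NC abundance the median was -0.542 with a partner changed to a charged residue, -0.571 with a partner changed to glycine, -0.347 with a partner changed to a polar residue, -0.255 with a partner changed to an aliphatic or aromatic one and -0.727 with a partner changed to proline. In PDZ3 abundance the same medians ran from -1.09 (glycine) to -1.05 (aliphatic or aromatic). Prolines at the 10 positions taken as touching the ligand gave a median of -1.04 in N, -0.944 in C, -0.887 in NC and -1.01 in PDZ3 in binding, beside -0.993 in N, -0.807 in C, -0.539 in NC and -0.992 in PDZ3 for prolines elsewhere. The abundance of the same doubles was -0.969 in N, -0.964 in C, -0.503 in NC and -1.08 in PDZ3, beside -0.848 in N, -0.834 in C, -0.298 in NC and -1.06 in PDZ3 elsewhere. These medians are descriptions, since positions differ in both the proline and the partner they carry.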

How the data were processed

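The 56 libraries are yeast competition cultures of 4 constructs in 2 assays. The authors deposited 1 merged fitness score and its standard error for each variant of each set, per the file headers, with the wild type at 0; the log base of the score is not stated there. Of the tools, cutadapt and FastQC are known from the submitters' processing notes, without versions. The last 2 letters of each deposited amino acid string were left out of the comparison with the wild type, and 8 entries with a placeholder error of 100 were left out. Scores were divided by the median of the single nonsense variants of the set. A test suited to counts could not be used, since neither counts nor cultures are in the table. Each difference was therefore set against the authors' error in a two-sided normal test. That test was also run on simulated data with noise drawn from the same errors. Such a run cannot tell whether the errors are too small. Single nonsense variants from G345 on spread 2.26 times their errors in N binding and up to 4.18 times in N abundance. The 3 contrasts against PDZ3 share its values. The error of a difference joins those of both values; the NC wild-type error was derived from its growth-rate error. The members and regions were chosen with earlier results of these data known.

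Doubles were named by this rule: measured with both singles in all 8 sets, with an error of the difference of at most 0.25, the 5 furthest each way in each comparison among those called in at least 3 of 4 constructs, or in the set itself for comparisons between sets. Doubles with 2 prolines and proline positions were ranked, and the 6 furthest each way were listed. Only a selection of the doubles and positions that met these rules is described. The positions L323P and L353P are described although they were not among those listed. Regions follow residue ranges assigned from general knowledge of PDZ domains. Other error sizes, scales, expectations for the sum and subsets of members were tried. Python 3.11.15, numpy 2.4.6, scipy 1.17.1 and pandas 2.3.3 were used.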

Additional observations from a re-analysis of the deposited data

Results flagged for a closer look

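The deviation of a double from the limited sum of its singles differed between NC and PDZ3 for some proline doubles, by a test of the difference itself (two-sided normal test over the authors' error, Benjamini-Hochberg adjusted). In abundance it was lower in NC for 174 of 2379 (6.83%) and higher for 153 (6.23%). In binding it was lower for 155 of 3019 (5.2%) and higher for 107 (4.63%). These shares are near those of all doubles. The 3 furthest each way in each assay, among those measured in all 8 sets with an error of the difference of at most 0.25, are given here. In abundance, the deviation was higher in NC than in PDZ3, and the difference of NC minus PDZ3 was 0.95 ± 0.244 for F325T/D357P, 0.941 ± 0.209 for T321P/P346E, 0.918 ± 0.104 for V328P/G329K. The doubles themselves scored -0.42 in NC and -1.37 in PDZ3 for F325T/D357P, 0.0359 in NC and -1.12 in PDZ3 for T321P/P346E, -0.357 in NC and -1.41 in PDZ3 for V328P/G329K. In abundance, the deviation was lower in NC than in PDZ3, and the difference of NC minus PDZ3 was -1.31 ± 0.148 for F325A/I327P, -1.2 ± 0.129 for L353P/D357A, -1.15 ± 0.234 for L353P/I359F. The doubles themselves scored -1.05 in NC and -0.568 in PDZ3 for F325A/I327P, -0.935 in NC and -0.685 in PDZ3 for L353P/D357A, -1.05 in NC and -0.795 in PDZ3 for L353P/I359F. In binding, the deviation was higher in NC than in PDZ3, and the difference of NC minus PDZ3 was 0.804 ± 0.18 for L367P/A370M, 0.761 ± 0.188 for R354P/D357T, 0.716 ± 0.164 for T321P/P346N. The doubles themselves scored -0.111 in NC and -1.23 in PDZ3 for L367P/A370M, -0.348 in NC and -1.11 in PDZ3 for R354P/D357T, 0.00161 in NC and -0.984 in PDZ3 for T321P/P346N. In binding, the deviation was lower in NC than in PDZ3, and the difference of NC minus PDZ3 was -1.23 ± 0.162 for G335I/L342P, -1.06 ± 0.229 for S361P/G364C, -1.03 ± 0.115 for L367R/A370P. The doubles themselves scored -0.871 in NC and -0.447 in PDZ3 for G335I/L342P, -0.882 in NC and -0.979 in PDZ3 for S361P/G364C, -1 in NC and -0.917 in PDZ3 for L367R/A370P. For S361P/G364C the NC deviation was -1.04, so the sum of its singles lay above the wild type. S361P alone scored -0.781 in NC binding, so the difference rests on a G364C single far above the wild type. With errors widened to the spread of single nonsense variants, 0 of these differences were called in either assay, and with errors multiplied by 2, 16 were called in abundance and 2 in binding. Several PDZ3 scores lay below the nonsense median, F325T/D357P and V328P/G329K among them, and their deviations hold that part too. For every double given here as lower in NC, the sum in PDZ3 stood at the limit of -1. The same was true of F325T/D357P, V328P/G329K, L367P/A370M and R354P/D357T. Their PDZ3 deviations were counted from that limit, so these differences depend in part on where it is set.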

How the results depend on the processing

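With the authors' errors, the shares of doubles called in either direction were 89.3% for the wild type in binding, 73.7% for the wild type in abundance, 19.3% for the more harmful single in binding, 16.9% for the more harmful single in abundance, 30.3% for the proline single in binding, 27.4% for the proline single in abundance, 15% for the sum in binding, 14.4% for the sum in abundance, 8.68% for the deviation of NC from PDZ3 in binding, 13.7% for the deviation of NC from PDZ3 in abundance, 6.13% for N against PDZ3 in binding, 20.3% for N against PDZ3 in abundance, 30.4% for C against PDZ3 in binding, 24.8% for C against PDZ3 in abundance, 43.8% for NC against PDZ3 in binding, 45.5% for NC against PDZ3 in abundance, 22.1% for binding against abundance in N, 22.9% for binding against abundance in C, 29.1% for binding against abundance in NC, 14.5% for binding against abundance in PDZ3. Only shares that moved by over 1.5 times are given for the other settings. With errors multiplied by 2 they were 42.1% for the wild type in abundance, 3.9% for the more harmful single in binding, 2.72% for the more harmful single in abundance, 11.7% for the proline single in binding, 7.72% for the proline single in abundance, 3.26% for the sum in binding, 1.97% for the sum in abundance, 0.0662% for the deviation of NC from PDZ3 in binding, 0.673% for the deviation of NC from PDZ3 in abundance, 0% for N against PDZ3 in binding, 1.85% for N against PDZ3 in abundance, 10.7% for C against PDZ3 in binding, 4.77% for C against PDZ3 in abundance, 18.4% for NC against PDZ3 in binding, 18.2% for NC against PDZ3 in abundance, 6.28% for binding against abundance in N, 5.68% for binding against abundance in C, 8.49% for binding against abundance in NC, 3.17% for binding against abundance in PDZ3. With errors multiplied by the spread of the late single nonsense variants over their error they were 48.9% for the wild type in binding, 9.16% for the wild type in abundance, 1.01% for the more harmful single in binding, 0.18% for the more harmful single in abundance, 5.38% for the proline single in binding, 0.818% for the proline single in abundance, 0.943% for the sum in binding, 0.113% for the sum in abundance, 0% for the deviation of NC from PDZ3 in binding, 0% for the deviation of NC from PDZ3 in abundance, 0% for N against PDZ3 in binding, 0% for N against PDZ3 in abundance, 1.49% for C against PDZ3 in binding, 0% for C against PDZ3 in abundance, 4.42% for NC against PDZ3 in binding, 1.94% for NC against PDZ3 in abundance, 1.29% for binding against abundance in N, 0.689% for binding against abundance in C, 1.7% for binding against abundance in NC, 0.132% for binding against abundance in PDZ3. With the median absolute deviation as that spread they were 36.5% for the wild type in abundance, 4.66% for the more harmful single in binding, 4.15% for the more harmful single in abundance, 13.1% for the proline single in binding, 8.78% for the proline single in abundance, 3.26% for the sum in binding, 3.24% for the sum in abundance, 3.61% for the deviation of NC from PDZ3 in binding, 0.168% for the deviation of NC from PDZ3 in abundance, 2.21% for N against PDZ3 in binding, 0% for N against PDZ3 in abundance, 2.07% for C against PDZ3 in abundance, 6.62% for NC against PDZ3 in abundance, 5.21% for binding against abundance in N, 7.39% for binding against abundance in C, 11.7% for binding against abundance in NC, 4.01% for binding against abundance in PDZ3. With the spread of doubles that hold a late stop they were 10.3% for the more harmful single in binding, 7.84% for the sum in binding, 2.77% for the deviation of NC from PDZ3 in abundance, 5.09% for N against PDZ3 in abundance, 10.7% for C against PDZ3 in abundance, 24.8% for NC against PDZ3 in abundance, 8.28% for binding against abundance in PDZ3. The median-deviation and stop-double spreads, and the nonsense spread for the deviation of NC from PDZ3, were chosen after seeing the data. Over doubles with errors under 0.15 of the axis, which are fewer, they were 25.5% for the more harmful single in abundance, 22.9% for the sum in abundance, 18% for N against PDZ3 in binding, 46.9% for N against PDZ3 in abundance, 53.8% for C against PDZ3 in binding, 50.1% for C against PDZ3 in abundance, 67% for NC against PDZ3 in binding, 69.6% for NC against PDZ3 in abundance, 45% for binding against abundance in N, 37.6% for binding against abundance in C, 44.9% for binding against abundance in NC, 32.6% for binding against abundance in PDZ3. Without scaling they were 39.6% for N against PDZ3 in abundance, 59.6% for C against PDZ3 in binding, 76.9% for NC against PDZ3 in binding, 46.9% for binding against abundance in N. With no lower limit to the sum they were 42.6% for the sum in binding, 28.3% for the sum in abundance, 41.2% for the deviation of NC from PDZ3 in binding, 34% for the deviation of NC from PDZ3 in abundance. Over doubles with a plain sum above -0.8 they were 30.6% for the sum in binding, 22.2% for the sum in abundance. With at least 30 members a position, 3 positions lay above -0.25 in N binding, and over mild partners alone 8 in N binding, 8 in PDZ3 abundance and 4 in PDZ3 binding, where the main counts were 5, 5 and 2. On an axis ending at the lowest 5% of singles, the PDZ3 abundance median was -0.91. Of the calls on named doubles, 5 of 20 held under errors widened to the nonsense spread for NC against PDZ3, 4 of 40 held under errors widened to the nonsense spread for binding against abundance, 9 of 64 held under errors widened to the nonsense spread for the more harmful single, 9 of 65 held under errors widened to the nonsense spread for the sum, 19 of 72 held under errors widened to the nonsense spread for the proline single. In the same order, 9 of 20, 21 of 40, 30 of 64, 33 of 65 and 43 of 72 held with the median absolute deviation. With the spread of doubles that hold a late stop, 15 of 20, 38 of 40, 52 of 64, 58 of 65 and 64 of 72 held. Both of these spreads were chosen after seeing the data. With the sum limited at the median of doubles that hold a stop, chosen after seeing the data, no share over both directions moved by over 1.5 times, although the lower calls in PDZ3 abundance numbered 159 instead of 303, and 63 of 65 calls on named doubles held. Against the plain sum, 3 PDZ3 abundance differences changed sign: A347P/L353T at 0.511, F325T/A347P at 0.673, L367Q/A370P at 0.413. The cause was not tested beyond what each setting alters. No paired analysis was possible because the deposited values are merged over cultures, and leaving out single cultures was not run for the same reason. Depth is not in the files, so only the deposited errors limit precision here.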
